A study of Saccharomyces cerevisiae with 12 samples.

Results

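Transcript levels of untreated budding yeast cells lacking *RAD23* were compared with those of wildtype cells on Affymetrix yeast S98 arrays. The arrays were taken by their labels, 3 of *rad23Δ* and 3 of wildtype, which are 6 of the 12 arrays of the series. The wildtype strain (Euroscarf Y10000) and the *rad23Δ* strain (Euroscarf Y10278) share the haploid BY4742 background, each genotype is represented by 1 strain, and all cultures were grown in rich medium (YPD) into logarithmic phase without UV irradiation. The series also holds 3 arrays of *rad4Δ* (Euroscarf Y16158) and 3 of *rad4Δrad23Δ*, a double mutant made from the *rad23Δ* strain by putting a *HIS3* marker in place of *RAD4*. These 6 further arrays were used to estimate the spread and to set the *RAD23* deletion beside the same deletion in a *rad4Δ* background.

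Rad23 is the partner of Rad4 in the complex that recognises damaged DNA in nucleotide excision repair. It also carries a ubiquitin-like domain, which binds the proteasome, and ubiquitin-associated domains, through which it shuttles ubiquitinated proteins to the proteasome with Dsk2 and Ddi1. The study asked which genes are expressed differently when Rad4, Rad23 or both are absent.

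Signals are normalised array values on a log2 scale, on which a difference of 1 is a 2-fold change. Of the 9275 probe sets tested, 26 were changed in *rad23Δ* (0.280%), 13 higher (0.140%) and 13 lower (0.140%), by limma's moderated test with a Benjamini-Hochberg adjusted p under 0.05. Probe sets past this threshold are referred to as called. At an unadjusted p under 0.05 there were 663. A single gene was named for 17 of the 26, several genes for 2 and none for 7. The size was over 4-fold for 2 of the 26, between 2-fold and 4-fold for 13 and under 2-fold for 11. On each of the 26 the *rad23Δ* arrays did not overlap the wildtype arrays, which was so for 11.5% of all probe sets. The hexose transporter gene *HXT3* and *RAD23* itself fell furthest. Beyond them, the hexose transporter genes *HXT2*, *HXT6* and *HXT7* were higher, and *ARG1* and *ARG4* of arginine synthesis and *PRM1*, *FIG1* and *FIG2* of mating were lower.

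**Figure D1:**
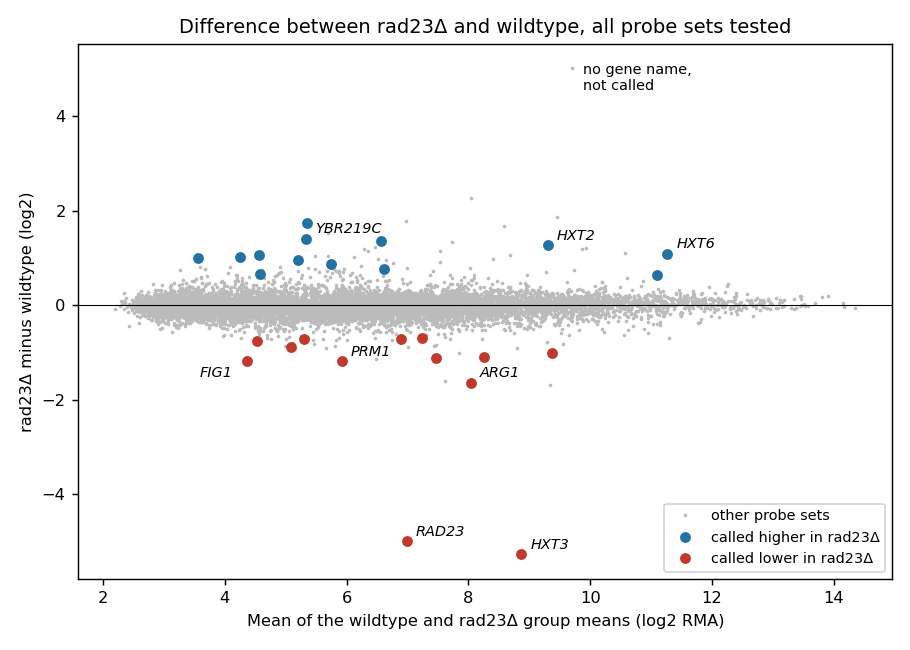
Difference between *rad23Δ* and wildtype (log2, vertical axis) against the mean of the 2 group means (log2 normalised signal, horizontal axis), with 1 point for each of the 9275 probe sets. The 13 called higher are blue and the 13 called lower are red, with *HXT3* and *RAD23* far below the rest, and the probe set at the top, which has no gene name and a difference of 5.02, was not called, with the array labelled wildtype replicate 3 at 12.18.

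The deleted gene was read first. The *RAD23* probe set (YEL037C) was at 9.58, 9.32 and 9.58 on wildtype replicates 1, 2 and 3 and at 4.88, 4.33 and 4.27 on *rad23Δ* replicates 1, 2 and 3. All *rad23Δ* arrays were thus far below all wildtype arrays, by 5.00 on the log2 scale (standard error 0.16, adjusted p = 4.28e-09 from limma). The 3 protein-coding genes on either side of *RAD23* on chromosome V were all measured, and none was called, with differences between -0.33 (*UTR4*) and 0.22 (*CYC7*).

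*RAD4*, which both strains carry, was at 5.11 and 5.12 on wildtype replicates 1 and 2, whereas the array labelled wildtype replicate 3 was at 3.42. The *rad23Δ* arrays were at 5.44, 5.12 and 5.14. On the arrays labelled *rad4Δ* the values were 3.49, 5.47 and 3.01. The *RAD4* signal therefore went against the label of wildtype replicate 3 and of *rad4Δ* replicate 2. No array was given another label, and results are given below with all arrays and with these arrays left out. The fit without the array labelled wildtype replicate 3 gave 20 calls (0.216%), which include 15 of the 26. The fit without both arrays in doubt gave 61 (0.658%), 31 higher (0.334%) and 30 lower (0.323%), which include 19 of the 26. The counts without each of the other arrays were 7 (wildtype replicate 1), 14 (wildtype replicate 2), 23 (*rad23Δ* replicate 1), 8 (*rad23Δ* replicate 2) and 11 (*rad23Δ* replicate 3). The call held in each of these 6 fits for 7 of the 26 probe sets, those of *HXT3*, *RAD23*, *ARG1*, *ARG4*, *FIG1* and *HXT6* and 1 shared by *YRF1* genes.

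Wildtype replicate 2 stood apart in another measure. Its 5 control probe sets for 18S ribosomal RNA averaged 4.42, against 6.63 to 8.02 on the other 11 arrays, and its 5 for 25S averaged 4.37, against 6.30 to 7.14. The log2 ratio of the 3′ to the 5′ control probe set of *ACT1* was between 0.30 and 0.61 in wildtype, with the lowest on replicate 2, and between 0.57 and 0.72 in *rad23Δ*. The correlation between any 2 of the 6 arrays across probe sets was between 0.986 and 0.998. As for mating type, 4 alpha-specific genes were bright in both strains (*MF(ALPHA)1* at 12.10 in wildtype and 11.96 in *rad23Δ*) and a-specific genes such as *STE2* were dim (3.23 and 3.22), as in alpha cells. The markers *URA3* and *LYS2*, which BY4742 lacks, were dim in both strains. *HIS3*, another marker of this background, was bright in both, with its values given at the end.

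**Figure D2:**
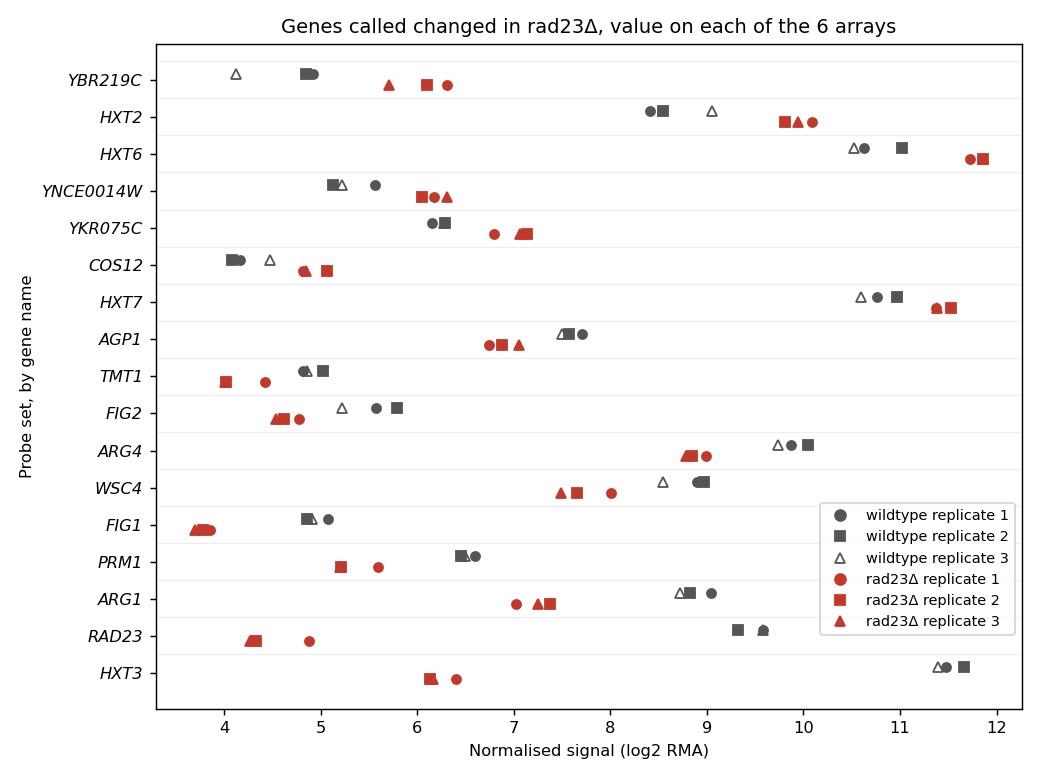
Normalised signal (log2, horizontal axis) of the 17 called probe sets with 1 gene name, on each wildtype array (grey) and each *rad23Δ* array (red), with 1 marker shape per replicate and an open triangle for the array labelled wildtype replicate 3. The strains do not overlap at any of the 17, and *HXT3* lies at 11.39 to 11.66 in wildtype and at 6.13 to 6.40 in *rad23Δ*.

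Yeast takes up glucose through a family of hexose transporters of graded affinity, whose transcription follows the glucose outside the cell through the sensors Snf3 and Rgt2 and the repressors Mth1, Std1, Rgt1 and Mig1. Of 25 genes of hexose transport and glucose sensing that were measured, 3 were called higher (*HXT2*, *HXT6*, *HXT7*) and 1 lower (*HXT3*), against 0.140% of all probe sets in each direction. Without the array labelled wildtype replicate 3, 2 were called higher and 1 lower. The median difference of the list was 0.12, against -0.01 over all probe sets tested.

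*HXT3* (YDR345C) encodes a low-affinity transporter that is abundant in cells growing on glucose. Its probe set was at 11.48, 11.66 and 11.39 on the wildtype arrays and at 6.40, 6.13 and 6.16 on the *rad23Δ* arrays. The *rad23Δ* arrays were close together and below every wildtype array, by 5.28 on the log2 scale (95% interval -5.57 to -4.99), a fall of 38.9-fold (adjusted p = 4.2e-10 from limma). The adjusted p stayed at or below 2.22e-08 when 1 array was left out at a time. In a culture, fewer cells carrying a transcript and less of it per cell cannot be told apart.

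The genes next to *HXT3* on chromosome IV include *HXT6* and *HXT7*, which encode high-affinity transporters so alike that their probe sets, both of Affymetrix's family type, may each detect both transcripts. *HXT6* (YDR343C) was at 10.63, 11.02 and 10.52 in wildtype and at 11.73, 11.86 and 11.86 in *rad23Δ*. The difference was 1.09 (standard error 0.12, adjusted p = 1.56e-03 from limma), with every *rad23Δ* array above every wildtype array. *HXT7* (YDR342C) was at 10.76, 10.97 and 10.60 in wildtype and at 11.37, 11.53 and 11.38 in *rad23Δ*, a difference of 0.65 (adjusted p = 0.0298) that missed the threshold without the array labelled wildtype replicate 3 (adjusted p = 0.0798) and without any other of the 6 arrays but wildtype replicate 2 (adjusted p up to 0.174). On the other side of *HXT3*, *SVF1*, *MRP1* and *PAL1* were not called, with differences of 0.04, -0.07 and -0.15.

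*HXT2* (YMR011W), a high-affinity transporter gene on another chromosome, was at 8.41, 8.55 and 9.05 in wildtype and at 10.09, 9.81 and 9.94 in *rad23Δ*. It was higher by 1.28 (standard error 0.19, adjusted p = 0.0163 from limma) and by 1.47 without the array labelled wildtype replicate 3, which was the wildtype array nearest to *rad23Δ* (adjusted p = 6.69e-03). Leaving out any other of the 6 arrays ended the call (adjusted p up to 0.101). Of the other transporters, *HXT4* differed by 0.65 (adjusted p = 0.0959) and *HXT1* by 0.58 (adjusted p = 0.539). Both had every *rad23Δ* array above every wildtype array and neither passed the test. *MTH1*, whose product holds *HXT* genes repressed when glucose is low, was at 6.82, 6.78 and, on the array labelled wildtype replicate 3, 7.59 in wildtype and at 7.86, 7.85 and 7.66 in *rad23Δ*. Its difference was 0.73 (adjusted p = 0.415), and without both arrays in doubt it was 0.99 (adjusted p = 5.17e-03). The sensor genes *SNF3* and *RGT2* differed by 0.11 and -0.17, and the hexokinase gene *HXK2* by 0.23, none of them called. *YKR075C*, a gene of unknown function, was higher as well, at 6.15, 6.29 and 6.28 in wildtype and 6.80, 7.14 and 7.06 in *rad23Δ* (difference 0.76, adjusted p = 0.0163). Its *rad23Δ* arrays lay above all wildtype arrays, and the call missed without wildtype replicate 1, *rad23Δ* replicate 2 or *rad23Δ* replicate 3 (adjusted p up to 0.101).

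Arginine is made from ornithine and carbamoyl phosphate, and the last steps are catalysed by argininosuccinate synthetase (*ARG1*) and argininosuccinate lyase (*ARG4*). Of 16 genes of arginine synthesis and breakdown that were measured, *ARG1* and *ARG4* were called lower, against 0.140% of all probe sets. No other gene of the list was called, and the same 2 were called without the array labelled wildtype replicate 3. The median difference of the list was -0.22. *ARG1* (YOL058W) was at 9.04, 8.82 and 8.72 in wildtype and at 7.02, 7.38 and 7.25 in *rad23Δ*, a fall of 3.12-fold (log2 difference -1.64, standard error 0.17, adjusted p = 9.03e-04 from limma). *ARG4* (YHR018C) was at 9.87, 10.05 and 9.74 in wildtype and at 8.99, 8.85 and 8.78 in *rad23Δ*, a fall of 2.02-fold (log2 difference -1.01, standard error 0.13, adjusted p = 4.44e-03). The strains were well apart at both genes.

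The arrays did not overlap for 4 more genes of this list, *CPA1*, *ARG3*, *ARG7* and *ARG2*, all lower in *rad23Δ*. None of these 4 passed the test. With the called *ARG1* and *ARG4* this makes 6 of 16 genes (37.5%) against 6.50% of all probe sets. The list was chosen with earlier results of these data known, so this share is a description and no independent support. *CPA1*, for a subunit of carbamoyl phosphate synthetase, differed by -0.52 (adjusted p = 0.0959) and *ARG3*, for ornithine carbamoyltransferase, by -0.40 (adjusted p = 0.52). The genes of arginine breakdown, *CAR1* and *CAR2*, differed by 0.12 and -0.20 with overlapping arrays. Of 47 genes of other amino acid pathways none was called, and *HIS4* and *LYS1* differed by -0.19 and -0.26. The amino acid permease gene *AGP1* was lower, at 7.71, 7.57 and 7.50 in wildtype and 6.74, 6.88 and 7.05 in *rad23Δ* (difference -0.70, adjusted p = 0.0163), with all *rad23Δ* arrays below wildtype. This call was lost without wildtype replicate 1 or 2 or *rad23Δ* replicate 2 (adjusted p up to 0.097). *TMT1*, for trans-aconitate methyltransferase, was called lower too (difference -0.75, adjusted p = 0.0331), but not without the array labelled wildtype replicate 3 (adjusted p = 0.0761) or any other array than *rad23Δ* replicate 1 (adjusted p up to 0.205).

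Haploid cells induce a set of genes through Ste12 when they sense mating pheromone, and express them at a low basal level otherwise. Of 29 such genes measured, *PRM1*, *FIG1* and *FIG2* were called lower in *rad23Δ*, against 0.140% of all probe sets. No other gene was called, and the median difference was -0.20 over the list. Without the array labelled wildtype replicate 3, 4 were called lower, with *AGA1* added. *PRM1* (YNL279W), which acts in the fusion of mating cells, was at 6.60, 6.45 and 6.49 in wildtype and at 5.59, 5.21 and 5.20 in *rad23Δ*. It was lower by 2.27-fold (log2 difference -1.18, standard error 0.15, adjusted p = 5.25e-03 from limma), and missed without wildtype replicate 1 (adjusted p = 0.0518). *FIG1* (YBR040W), a membrane protein gene of calcium uptake in mating, was at 5.08, 4.86 and 4.91 in wildtype and at 3.85, 3.78 and 3.70 in *rad23Δ* (difference -1.17, standard error 0.12, adjusted p = 1.08e-03). *FIG2*, for an adhesin of mating cells, was at 5.57, 5.79 and 5.22 in wildtype and at 4.78, 4.62 and 4.54 in *rad23Δ* (difference -0.88, adjusted p = 0.0163), and missed without wildtype replicate 1 or 2 or *rad23Δ* replicate 2 or 3 (adjusted p up to 0.108). The *rad23Δ* values lay below every wildtype value at all 3 genes.

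In all, 13 of these 29 genes (44.8%) had every *rad23Δ* array below every wildtype array, against 6.50% of all probe sets, and none had every array above. The 13 include the called *PRM1*, *FIG1* and *FIG2*. This list too was chosen with earlier results of these data known, so the share is a description and no independent support. Those not called include the agglutinin gene *AGA1* (difference -0.78, adjusted p = 0.0959), *PRM6* (-0.70, adjusted p = 0.0915) and *FUS1* (-0.43, adjusted p = 0.0915). *STE12* itself differed by -0.18 with overlapping arrays. Of the 4 alpha-specific genes, *MF(ALPHA)2* and *SAG1* had lower values in *rad23Δ*, by 0.50 and 0.44 (difference -0.50, adjusted p = 0.08, and -0.44, adjusted p = 0.261), and *STE3* differed by 0.01. *WSC4*, a member of the *WSC* family of cell wall stress sensors, was at 8.90, 8.97 and 8.55 in wildtype and at 8.01, 7.65 and 7.49 in *rad23Δ*. All its *rad23Δ* arrays were lower, and the difference was -1.09 (adjusted p = 0.0404), lost without wildtype replicate 1 or 2 or *rad23Δ* replicate 2 or 3 (adjusted p up to 0.237).

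**Figure D3:**
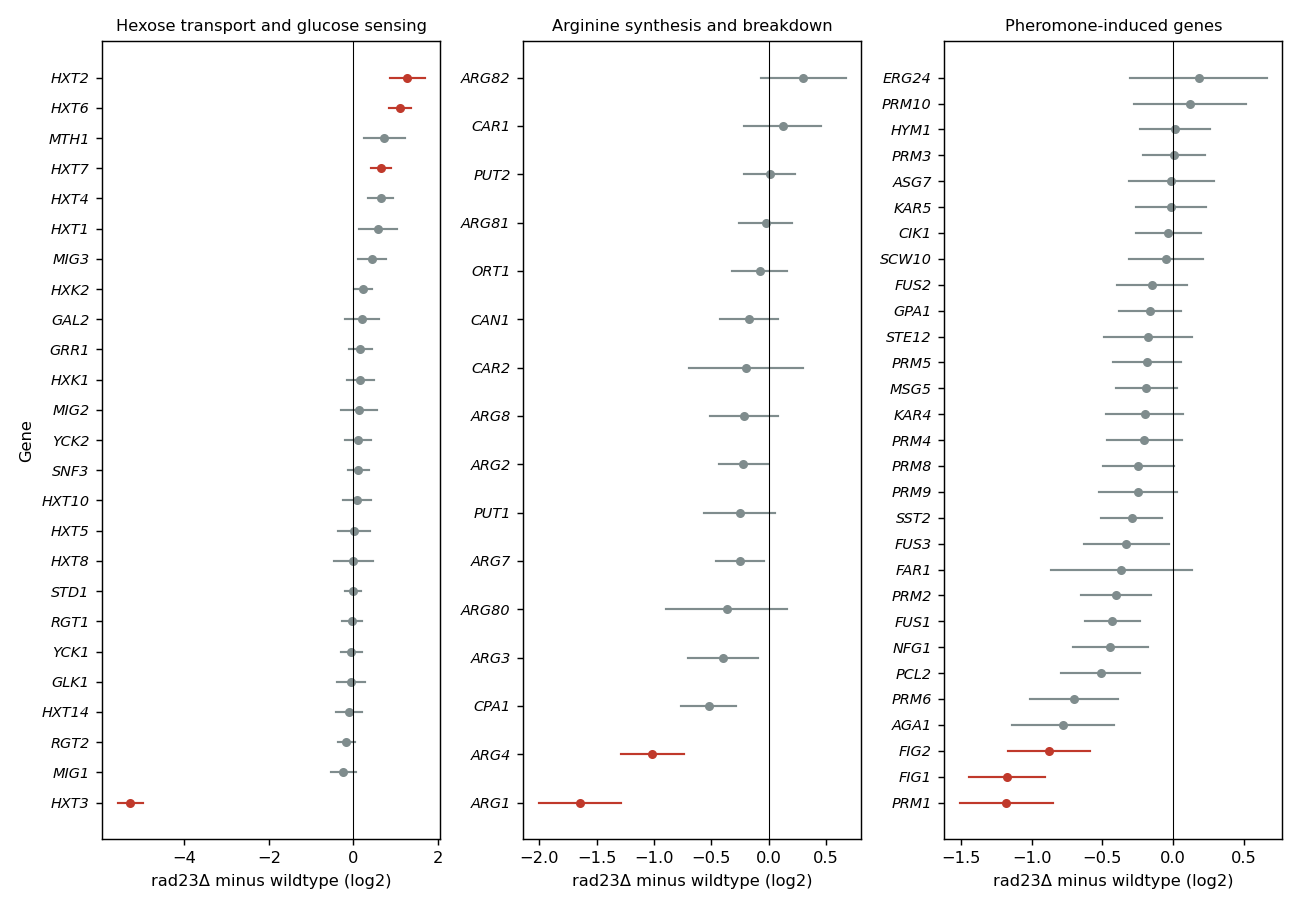
Difference between *rad23Δ* and wildtype (log2, horizontal axis) with its 95% interval from limma for each measured gene of 3 lists (vertical axis), with called genes in red. In the middle and right panels the called genes (*ARG1*, *ARG4*, *PRM1*, *FIG1* and *FIG2*) all lie below 0, while in the left panel *HXT3* lies at -5.28 and the called *HXT2*, *HXT6* and *HXT7* lie above 0.

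Among the other called probe sets, 2 belong to gene families of the chromosome ends. A probe set shared by *YPR202W* and the *YRF1* genes, which encode helicases of the subtelomeric Y′ elements, was at 4.81, 4.31 and 4.35 in wildtype and at 5.88, 6.50 and 6.29 in *rad23Δ*. It was higher by 1.73 (adjusted p = 9.03e-04 from limma), the highest of the called differences above 0. *COS12* (YGL263W), of the subtelomeric *COS* family, was at 4.17, 4.08 and 4.48 in wildtype and at 4.82, 5.07 and 4.85 in *rad23Δ* (difference 0.67, adjusted p = 0.0491). Of 8 *COS* genes measured it was the 1 called, and *COS8*, the next, differed by 0.50 (adjusted p = 0.503). The call of *COS12* held without the array labelled wildtype replicate 3 and was lost without any of the other 5 (adjusted p up to 0.281). *YBR219C*, of unknown function, was at 4.92, 4.85 and 4.12 in wildtype and at 6.31, 6.10 and 5.71 in *rad23Δ*. Its difference of 1.41 (adjusted p = 0.0274) was 1.16 without the array labelled wildtype replicate 3, where it missed the threshold (adjusted p = 0.0592). It also missed without any other array than *rad23Δ* replicate 3 (adjusted p up to 0.142), and all its *rad23Δ* values were above all its wildtype values. A tRNA probe set of the family type, *YNCE0014W*, was higher by 0.87 (adjusted p = 0.0395) and missed in all 6 fits with 1 array left out. Of the 7 called probe sets without a gene name, 5 were higher, by 0.96 to 1.37, and 2 were lower, with differences of -1.12 and -0.71, and none of the 7 passed in all 6 of these fits. The last of the 26, shared by the Ty3 genes *YIL082W-A* and *YGR109W-B*, was lower (difference -0.71, adjusted p = 0.0391) and passed in 1 of the 6.

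No gene was called in the lists for the processes Rad23 is known for. Of 25 other excision repair genes measured, none passed, and their differences lay between -0.22 (*RAD10*) and 0.25 (*TFB4* and *CCL1*). Of 18 genes for ubiquitin shuttles and partners of Cdc48, none passed, with *DSK2* and *DDI1*, the other shuttles, both at -0.01. *RPN4*, the transcription factor of proteasome genes, was at 8.20, 8.01 and 8.35 in wildtype and at 8.37, 8.58 and 8.48 in *rad23Δ*, a difference of 0.29 that did not pass (adjusted p = 0.705). The 33 proteasome subunit genes had a median difference of 0.13 and none was called. At *RPT5*, the highest of them, the difference was 0.33 (95% interval 0.06 to 0.61, adjusted p = 0.564).

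A list of 23 genes was drawn up around the study's account of the DNA damage response, and 22 of them were measured. The list holds *HSP12*, which the text of the study does not name. The study's authors chose their genes with these arrays among their data, so the list is not independent. None of the 22 was called in *rad23Δ* before or after leaving out the array labelled wildtype replicate 3, and their median difference was -0.21. *HSP12* was called lower without both arrays in doubt. *RNR3*, for a damage-induced subunit of ribonucleotide reductase, was at 5.63, 5.62 and 5.74 in wildtype and at 5.42, 4.86 and 4.72 in *rad23Δ*. *HUG1*, another target of the checkpoint, was at 4.78, 4.97 and 4.85 in wildtype and at 4.63, 3.97 and 4.17 in *rad23Δ*. Every *rad23Δ* value was below wildtype at both genes, replicate 1 least so, and the differences of -0.66 and -0.61 did not pass (adjusted p = 0.281 and 0.594 from limma). The reductase genes *RNR1*, *RNR2* and *RNR4* differed by -0.34, -0.04 and 0.02 and were not called.

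Some genes of the stress response and of iron uptake passed only without the arrays in doubt. Leaving out both the array labelled wildtype replicate 3 and *rad4Δ* replicate 2 added 42 probe sets (0.453%) to the calls, 24 higher and 18 lower, of which 32 had 1 gene name. At 40 of the 42 the array labelled wildtype replicate 3 was nearer to the *rad23Δ* mean than to the mean of wildtype replicates 1 and 2. That was so for 53.5% of all probe sets. The 42 were picked by calls made without that array, so a high share was largely set by the choice and is no support. Leaving out the array labelled wildtype replicate 3 alone added 5 probe sets (0.0539%). Between these 2 fits, the rest of the 42 passed only where *rad4Δ* replicate 2 was left out as well. That *rad4Δ* array enters this comparison through the shared spread alone.

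*HSP30*, for a stress-induced membrane protein that restrains the plasma membrane ATPase, was at 7.62, 7.35 and, on the array labelled wildtype replicate 3, 10.57 in wildtype. The *rad23Δ* arrays were at 10.41, 10.38 and 10.37. The difference was 1.87 with all arrays (adjusted p = 0.669 from limma) and 2.90 without both arrays in doubt (adjusted p = 8.14e-07). Thus 1 wildtype array lay above *rad23Δ* and the other two lay far below. *RGI1* (respiratory growth) and *DIA1* had the same arrangement, while at *ISF1* the array labelled wildtype replicate 3 (6.89) was just below the *rad23Δ* arrays (7.02 to 7.14) and at *EGO4* (8.15) it was among them (7.97 to 8.21). *RGI1*, *ISF1*, *EGO4* and *DIA1* had differences of 1.69, 1.76, 1.73 and 1.48 without both arrays (adjusted p from 4.52e-05 to 2.49e-04).

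*HSP12*, for a small membrane-stabilising heat shock protein, was at 10.65, 10.69 and, on the array labelled wildtype replicate 3, 9.20 in wildtype and at 8.46, 8.60 and 8.41 in *rad23Δ*. The difference was -1.69 with all arrays (adjusted p = 0.252) and -2.18 without both (adjusted p = 5.51e-06). *HSP26*, for a small chaperone, was at 8.78, 8.89 and 7.60 in wildtype and at 6.85, 6.79 and 6.81 in *rad23Δ*. At both genes every *rad23Δ* array was below every wildtype array, and the array labelled wildtype replicate 3 was the nearest. *HSP26* passed without that array alone (difference -2.02, adjusted p = 0.013), as did *TMA10*, higher by 1.49 (adjusted p = 6.9e-03), and *PRY1*, *AGA1* and *YTP1*, lower by 1.09, 0.95 and 0.78 (log2 differences -1.09, -0.95 and -0.78, adjusted p between 0.039 and 0.0484).

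In the fit without both arrays in doubt, 0.334% of all probe sets were called higher and 0.323% lower. Of 40 genes that Msn2 and Msn4 induce under stress, none was called with all arrays, and 1 was higher (*TMA10*) and 2 were lower (*HSP12*, *HSP26*) without both arrays in doubt. Of 33 chaperone genes none was called with all arrays, and 3 were higher without both (*BTN2*, *HSP42* and *CUR1*, all known for sorting misfolded proteins). Of 21 genes of the iron regulon none was called with all arrays, and 4 were lower without both. These were *FIT2*, for a cell wall protein that retains iron, *ARN1* and *ARN2*, for siderophore transporters, and *TIS11*, whose product degrades messages for iron-using proteins. *FIT2* was at 9.05, 9.02 and, on the array labelled wildtype replicate 3, 7.54 in wildtype and at 8.15, 8.08 and 8.13 in *rad23Δ*, so that *rad23Δ* lay between the wildtype arrays. Its difference was -0.42 with all arrays (adjusted p = 0.829) and -0.92 without both (adjusted p = 3.14e-03).

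**Figure D4:**
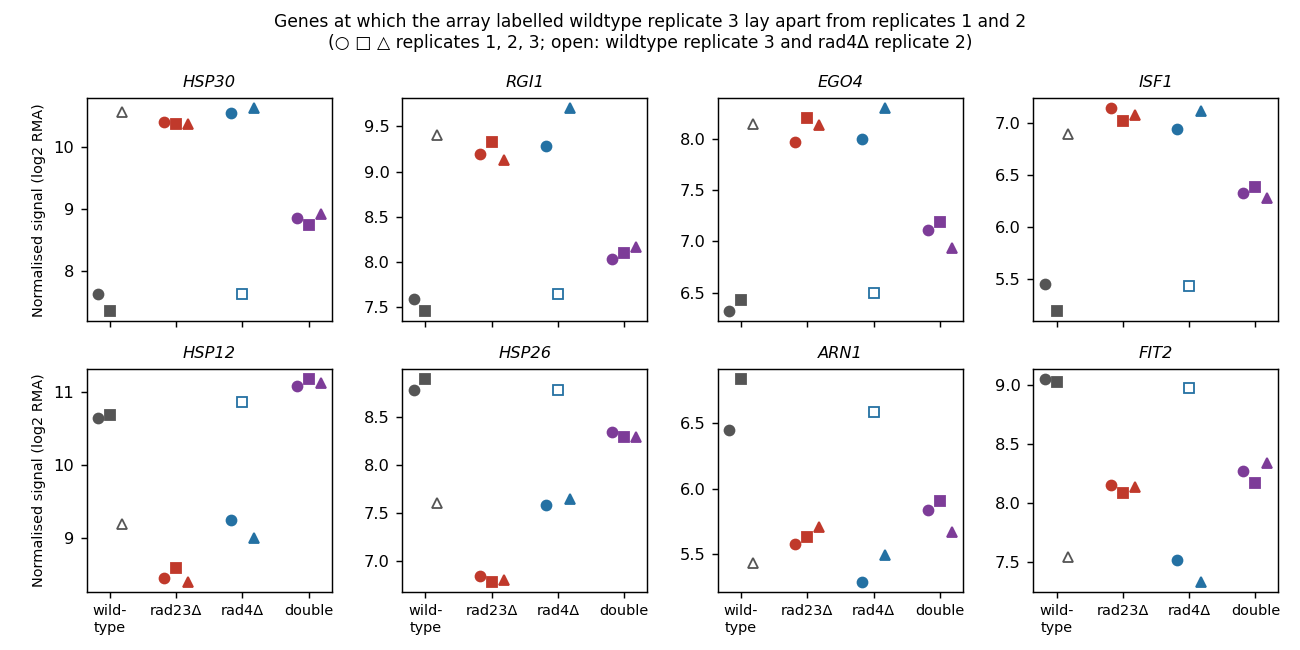
Normalised signal (log2, vertical axis) of 8 genes on all 12 arrays by strain, with 1 point per array and open markers for the 2 arrays in doubt, wildtype replicate 3 and *rad4Δ* replicate 2. *HSP30* shows the pattern, with wildtype at 7.62 and 7.35 but 10.57 on the open marker, and *rad4Δ* at 10.55 and 10.63 but 7.62 on its open marker.

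For these genes the other strains gave a further view. *HSP30* was at 10.55, 7.62 and 10.63 on the arrays labelled *rad4Δ* replicates 1, 2 and 3, and *HSP12* was at 9.25, 10.86 and 9.01. At both genes *rad4Δ* replicate 2 was near wildtype replicates 1 and 2, while *rad4Δ* replicates 1 and 3 were near the array labelled wildtype replicate 3. The part that the labels of these 2 arrays play in the counts was not tested beyond leaving the arrays out.

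The *RAD23* deletion was also read in cells without *RAD4*, as *rad4Δrad23Δ* against *rad4Δ*, 6 arrays whose values enter neither the *rad23Δ* nor the wildtype mean, though both comparisons take their spread from the same fit of all 12 arrays. This comparison was added after the values had been seen. It had 71 calls (0.765%), 43 higher and 28 lower, and 1004 probe sets at an unadjusted p under 0.05. Of the 26 probe sets called against wildtype, 24 had the same sign in the *rad4Δ* background, against 51% of all probe sets, and 7 were called there in the same direction. *RAD23*, whose fall is fixed by the deletion, is counted in both. The 51% covers differences of any size, so it is not a like comparison for probe sets called as changed. The 7 were those of *HXT3*, *RAD23*, *HXT6*, *HXT7*, *COS12*, *YBR219C* and the *YRF1* genes, and the same number was found without both arrays in doubt. The size was at least 0.5 times as large for 9 of the 26, *RAD23* among them. Some of the 24 were near 0 in the *rad4Δ* background, such as *PRM1* (-0.04, standard error 0.15) and *YKR075C* (0.01, standard error 0.11). The 2 of opposite sign, *YNCE0014W* (-0.05) and *TMT1* (0.003), were near 0 as well. The double mutant was made from the same *rad23Δ* strain, so that a shared effect of the deletion and one of any other change in that strain cannot be told apart.

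*HXT3* was at 11.47, 11.36 and 11.72 in *rad4Δ* and at 4.21, 4.10 and 3.84 in *rad4Δrad23Δ*, a difference of -7.47 (adjusted p = 6.63e-12). This was larger than the difference of -5.28 in the *RAD4* background by 2.19 on the log2 scale (interaction -2.19, adjusted p = 3.52e-04 from limma). *HXT6* was at 10.74, 10.69 and 10.64 in *rad4Δ* and at 11.70, 11.74 and 11.79 in *rad4Δrad23Δ*. Its difference of 1.05 (adjusted p = 1.26e-03) was next to the 1.09 found against wildtype, with an interaction of -0.04 (adjusted p = 0.966). *HXT7* was higher by 0.82 (adjusted p = 3.53e-03). *COS12* was at 4.39, 4.29 and 4.47 in *rad4Δ* and at 5.69, 5.68 and 5.87 in *rad4Δrad23Δ* (difference 1.36, adjusted p = 1.94e-04). At each of these genes the double mutant and *rad4Δ* arrays did not overlap.

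The genes *ARG1*, *ARG4*, *PRM1*, *FIG1* and *FIG2* were not called in the *rad4Δ* background. *ARG1* was at 8.53, 9.22 and 9.07 in *rad4Δ* and at 8.35, 8.45 and 8.44 in *rad4Δrad23Δ* (difference -0.53, adjusted p = 0.226), against -1.64 in the *RAD4* background. *PRM1* differed by -0.04 (adjusted p = 0.969) and *FIG1* by -0.26 (adjusted p = 0.478). The test of the change in effect, the interaction, was 1.12 for *ARG1* (adjusted p = 0.121), 1.14 for *PRM1* (adjusted p = 0.0809) and 0.91 for *FIG1* (adjusted p = 0.089), none past the threshold. Without both arrays in doubt it passed for *ARG1* and *PRM1* (adjusted p = 0.0292 and 0.0278) and not for *FIG1* (adjusted p = 0.0681). *HXT2* differed by 0.34 (adjusted p = 0.582), with an interaction of -0.94 (adjusted p = 0.286) that passed at -1.34 without both arrays (adjusted p = 5.5e-03).

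**Figure D5:**
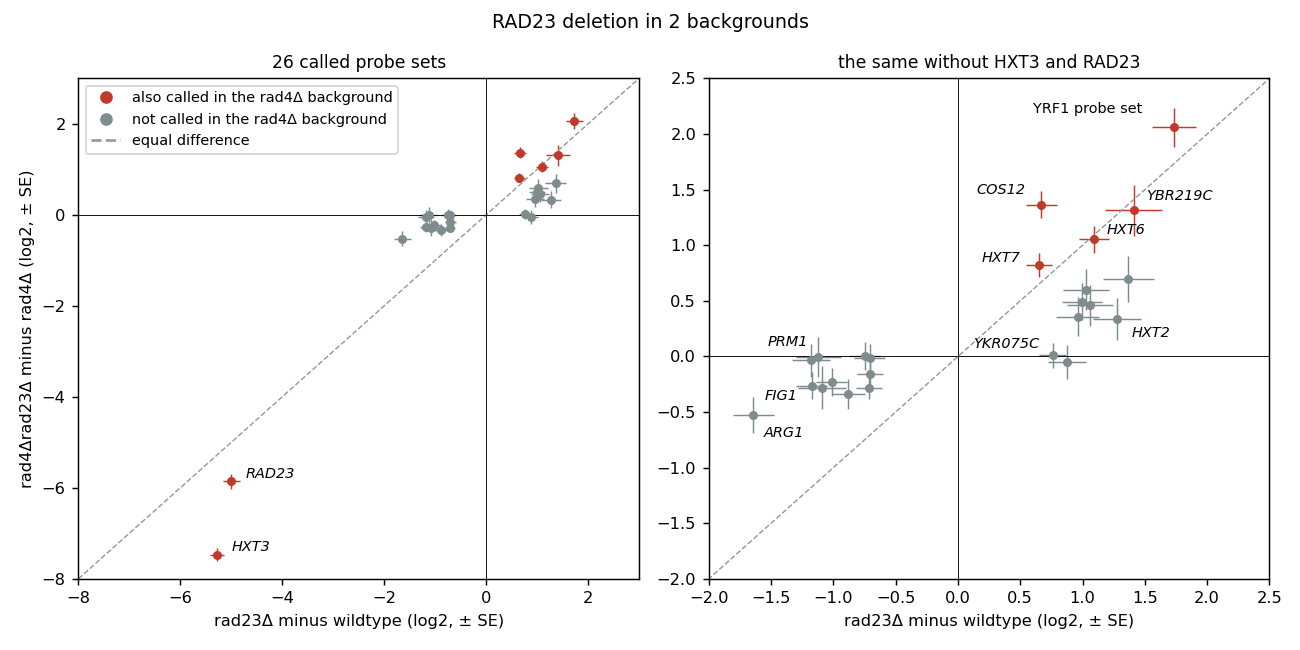
The effect of the *RAD23* deletion against wildtype (log2 difference, horizontal axis) and in the *rad4Δ* background (log2 difference, vertical axis) for the 26 called probe sets, over their whole range on the left and without *HXT3* and *RAD23* on the right, where the line marks equal effects. *HXT3* lies below the line, at -5.28 and -7.47, *HXT6* lies near it, and *PRM1* lies at -1.18 and -0.04.

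Over all probe sets the interaction was called for 8 (0.0863%), with 827 at an unadjusted p under 0.05, and *HXT3* was the 1 among the 26. Without both arrays in doubt 110 were called. *HSP12* then fell by 2.18 in the *RAD4* background (log2 difference -2.18) and rose by 2.00 in the *rad4Δ* background (adjusted p = 1.5e-05), with an interaction of 4.18 (adjusted p = 5.15e-07). *HSP30* went the other way, with differences of 2.90 and -1.75 (interaction -4.66, adjusted p = 3.63e-07). With all arrays neither interaction passed (adjusted p = 0.121 and 0.555).

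As a further reading, *rad23Δ* was set against *rad4Δ*, which shares the *rad23Δ* arrays with the comparison with wildtype and is no independent support for it. It had 24 calls (0.259%), 12 higher and 12 lower, with 528 at an unadjusted p under 0.05. For *HXT3* the difference was -5.29 and for *ARG1* -1.72 (adjusted p = 4.13e-10 and 5.22e-04), and for *TMT1* it was -0.30 (adjusted p = 0.795).

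The other lists examined had no called member with all arrays. They cover ribosome biogenesis (40 genes measured), cytosolic ribosomal proteins (80), the cell cycle and histones (27), the cell wall (27), DNA checkpoint and recombination (29), the respiratory chain (45), glycolysis (17) and sulfur and methionine (26), among others. Ribosome biogenesis had the highest median of these, 0.15, and *ENP1*, a processing factor of this list, was at 6.27 on *rad23Δ* replicate 1 against 8.66 and 8.70 on replicates 2 and 3. Medians by chromosome lay between -0.08 and 0.01 over 16 chromosomes.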

How the data were processed

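RNA from 3 cultures of each strain, described as biological repeats, was hybridised to Affymetrix yeast S98 arrays. Scans were taken by the authors in Microarray Suite 5.0, and the authors computed the deposited log2 values by robust multichip average (RMA) with affy 1.5.8 in Bioconductor 1.5 and R 2.0.1. RMA values carry no detection call, so that a fall to a dim level can be understated, and the precision is limited by the 3 arrays per strain. The tests covered 9275 of 9335 probe sets, all but 60 controls. The platform annotation named 1 gene for 6504 of them, several for 328 and no gene for 2443, with names updated by gene identifier to RefSeq. A gene of a list was read from 1 probe set.

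Differences were tested with limma 3.58.1 in R 4.3.3 in 1 fit of all 12 arrays with a mean per strain, with Benjamini-Hochberg adjustment over all 9275 probe sets, a threshold of 0.05 and no fold minimum. "Without both arrays in doubt" means the same fit without wildtype replicate 3 and *rad4Δ* replicate 2. Arrays are given in the order of their replicate numbers. The fit was also run on simulated data with independent normal noise and no outlying array. That simulation cannot test how the arrays in doubt move the calls. An exact permutation test of 3 against 3 arrays cannot go below p = 0.1 and was not used. Named genes are all called probe sets with 1 gene name, *RAD23*, *RAD4*, up to 12 in each direction called only without the arrays in doubt, and members of the lists. The comparison, the lists and this rule were chosen with earlier results of these data known. Alternatives covered arrays left out, the strains fitted, the replicate number as a block, scaling, dim probe sets, the variance model, array weights, the threshold and probe sets per gene.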

Additional observations from a re-analysis of the deposited data

Results flagged for a closer look

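The effect of the *RAD23* deletion on *HXT3* differed between backgrounds by a test of the difference itself. It was -5.28 (log2) against wildtype and -7.47 in the *rad4Δ* background, an interaction of -2.19 (limma, adjusted p = 3.52e-04). All 6 *rad23Δ* and *rad4Δrad23Δ* arrays were below all 6 arrays with *RAD23*. Without both arrays in doubt the interaction was -2.21 (adjusted p = 6.03e-04). The deleted *RAD23* was also lower in the double mutant, at 3.66, 3.74 and 3.82 against 4.88, 4.33 and 4.27 in *rad23Δ*. Its interaction was -0.85 (adjusted p = 0.257). Each genotype is 1 strain, so the absence of *RAD4* and any other difference between the strains cannot be told apart.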

How the results depend on the processing

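The count of 26 was between 7 and 23 when 1 of the 6 arrays was left out. It was 61 without both arrays in doubt, 9 with only the 6 wildtype and *rad23Δ* arrays fitted and 40 with these less the array labelled wildtype replicate 3. It was 8 at an adjusted p under 0.01 and 48 under 0.1. Array weights gave 2357, where the estimation of the weights stopped before it converged, and weights estimated gene by gene, chosen after seeing the data, gave 842. Without wildtype replicates 2 and 3, also chosen after seeing the data, 6 were called. Median centring, quantile normalisation, a mean above 5, an intensity trend and 1 probe set a gene gave 20 to 33.

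For *rad4Δrad23Δ* against *rad4Δ* the 71 calls were 25 to 68 with 1 array left out (25 to 29 without 1 *rad4Δrad23Δ* array) and 116 without both arrays in doubt. For *rad23Δ* against *rad4Δ* the 24 calls were 10 to 36 with 1 array left out, 10 and 14 without *rad23Δ* replicates 2 and 3 and 13 without *rad4Δ* replicate 3. The 8 interaction calls were 3 to 24 with 1 array left out and 110 without both arrays in doubt. They were 3 without wildtype replicate 2, *rad23Δ* replicate 3 or *rad4Δrad23Δ* replicate 1 or 2, 4 without wildtype replicate 1 or *rad4Δrad23Δ* replicate 3, 14 without *rad23Δ* replicate 1, 19 without wildtype replicate 3, and 20 and 24 without *rad4Δ* replicates 1 and 2. The cause of these shifts was not tested.

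Replicate numbers were not found to pair the arrays, as the deviations of same-numbered wildtype and *rad23Δ* arrays correlated at -0.197, -0.077 and -0.311. For arrays of unlike number the values lay between -0.113 and 0.261. The highest were wildtype 1 with *rad23Δ* 2 (0.258), wildtype 2 with *rad23Δ* 3 (0.261) and wildtype 3 with *rad23Δ* 1 (0.247). A pairing under other numbers was not tested. With the replicate number as a block the counts were 25 for *rad23Δ* against wildtype (22 of the 26 among them), 86 for *rad4Δrad23Δ* against *rad4Δ*, 29 for *rad23Δ* against *rad4Δ* and 16 for the interaction.

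Of the 17 named genes called, 6 passed without each of the 6 arrays. Of these, 4 (*HXT3*, *RAD23*, *ARG1* and *FIG1*) passed under every alternative that tested them. *FIG1* was too dim for the fit of probe sets with a mean above 5 and was not tested there. The same was so for *YBR219C*, *COS12* and *TMT1*, whose calls thus rest on dim probe sets. None reversed its sign. The planned search for promoter motifs was not run. The values give no depth or background per probe set, and 3 arrays per strain limit what can be called, most for differences under 2-fold.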

Other observations

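Probe sets of the Ty3 retrotransposon, whose transcription is known to be induced by mating pheromone, were looked at after their values had been seen. Of 31 such probe sets, many of which share sequence, 30 had a difference below 0 and 12 (38.7%) had every *rad23Δ* array below every wildtype array, against 6.50% of all probe sets. The median difference was -0.32. The 1 called, shared by *YIL082W-A* and *YGR109W-B*, was at 5.58, 5.71 and 5.69 in wildtype and at 5.10, 4.87 and 4.88 in *rad23Δ* (difference -0.71, limma, adjusted p = 0.0391), and 4 were called lower without both arrays in doubt.

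Probe sets for tRNAs and for the mitochondrial genome lay the other way, and were also chosen after their values were seen. Of 92 tRNA probe sets, 24 (26.1%) had every *rad23Δ* array above every wildtype array, against 5.00% of all probe sets, with a median difference of 0.20 and 1 called. The 1 called, *YNCE0014W*, is of the family type. How far the 92 read the same transcripts was not tested, so they may not be separate members. Of 28 mitochondrial probe sets, 4 were below 0, a *VAR1* probe set was at 0 and the rest were above 0. At 6 (21.4%) every *rad23Δ* array was above every wildtype array, and none was called (limma). Apart from a bright probe set each of *OLI1* and *COX1*, all were below 5 on every one of the 6 arrays. These counts of direction therefore rest mostly on dim signals. The bright probe set of *OLI1*, for a subunit of the mitochondrial ATP synthase, was at 10.03, 8.49 and 9.55 in wildtype and at 10.22, 9.98 and 10.09 in *rad23Δ*. Its lowest value was on wildtype replicate 2, the array with the dim ribosomal RNA controls. Another *OLI1* probe set was dim and differed by -0.12. Of 59 snoRNA probe sets none was called with all arrays, and the median was 0.03.

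The probe set with the highest difference, which has no gene name, was singled out after its values were seen. It was at 4.75, 4.63 and, on the array labelled wildtype replicate 3, 12.18 in wildtype, and at 12.06, 12.24 and 12.32 in *rad23Δ*. In *rad4Δ* it was at 12.15, 4.28 and 12.36, and in *rad4Δrad23Δ* at 12.20, 12.16 and 12.11. It was thus dim on wildtype replicates 1 and 2 and on the array labelled *rad4Δ* replicate 2, and bright on the other 9 arrays. The difference from wildtype was 5.02 with all arrays (adjusted p = 0.638) and 7.52 without both arrays in doubt (adjusted p = 3.6e-10).

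The marker *HIS3* was at 8.93 to 9.01 in wildtype and at 8.59 to 8.83 in *rad23Δ*. BY4742 is a *his3* strain, and what part of the gene this probe set reads was not tested.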
